A study of Mus musculus with 564 samples.

Results

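The interleukin 1 receptor cluster of the mouse is a row of neighbouring genes on chromosome 1 that encode receptor chains of the interleukin 1 (IL-1) family. It was followed here at its cis-regulatory elements (CREs), the stretches of accessible chromatin at which ChIP-seq counted acetylation of lysine 27 of histone H3 (H3K27ac), found at promoters and enhancers in use. The members were the CREs whose centre lay within 25 kb of an annotated RefSeq transcription start of Il1r1, Il1r2, Il1rl1, Il1rl2, Il18r1 or Il18rap in the mouse genome build mm10, which gave 29 of 59190 CREs (0.0490%). The genes were chosen by the values of a CRE next to Il1rl2, which had been seen to rise after interleukin 4 (IL-4) in DMSO-treated cells. The IL-4 values of the DMSO libraries are therefore given as a description from which nothing is read. The LPS-stimulated libraries and the inhibitor libraries took no part in that choice. The unstimulated DMSO libraries did, and they are also the baseline of the LPS course in DMSO-treated cells.

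The cells were macrophages grown from bone marrow (BMDMs), taken from wild type male C57/BL6 mice of 6 to 8 weeks. They were pre-treated for 1 h with DMSO as vehicle or with a clinical kinase inhibitor (CKI), of which there were 58, each used at its EC50 for the intended target, so doses differed between CKIs. After that they were left unstimulated (UT) or received the bacterial TLR4 ligand lipopolysaccharide (LPS) or IL-4, both at 10 ng/mL, for 30 min, 1 h, 2 h or 4 h. Of the 564 libraries, 18 were from DMSO cells, with 2 replicates in each of 9 groups, and 546 were from CKI-treated cells, mostly with 1 library per CKI, stimulus and time. The labels do not say whether replicates came from separate cultures or animals, so the p-values measure the spread between these libraries, which may be technical.

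Values are read counts per CRE that the authors scaled and rounded, and all log2 differences are differences of log2(value + 5). Depth, estimated from the spacing of the values, was 2346043 to 5406531 reads in CREs for the 16 stimulated DMSO libraries, and for 535 CKI libraries it had a median of 1868622 and went down to 173059. A read was worth 1.14 to 2.54 units in these DMSO libraries and up to 23.5 in CKI libraries. Contrast, the ratio of the median values of the strongest and the weakest 10% of CREs, was 53 to 134 in DMSO libraries and 3.34 to 67.2 in CKI libraries. The shallowest library was that of PH797804 at 30 min of LPS. Of the macrophage genes with a promoter CRE in the table, Spi1 lay at 1573 to 2625 over the 18 DMSO libraries, Lyz2 at 124 to 653 and Mertk at 33 to 282. The promoter CREs of S100a8 at 3 to 35 and Camp at 1 to 171, both neutrophil genes, and of the stromal gene Col1a1 at 1 to 18 were far lower, except that Camp rose after LPS with a log2 difference of 3.97. Of the 3 macrophage promoter CREs, 2 were called lower after LPS, Mertk with −2.30 at 30 min and Lyz2 with −2.29 at 2 h, while Spi1 was not called, with 0.26 at 4 h. The part of these marker changes in the LPS results was not tested. No gene on the lists of mast cell and basophil, T and NK cell and B cell markers had a promoter CRE among the rows used. The study judged its chromatin by quantitative PCR at 3 loci before sequencing, and the IL-4-controlled locus among them lies inside the CRE upstream of Il1rl2 described below, so libraries were kept partly on enrichment that included this CRE.

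Receptors of the IL-1 family pair a ligand-binding chain with an accessory chain, and the joined intracellular TIR domains recruit MyD88 and the IRAK kinases, which lead to NF-kB and MAP kinase signalling. Il1r1 encodes the signalling receptor of IL-1, and Il1r2 encodes a decoy that binds IL-1 without signalling. Il1rl2 encodes the IL-36 receptor, Il1rl1 encodes ST2, the receptor of IL-33 that is known from mast cells and type 2 lymphocytes, and Il18r1 and Il18rap encode the chains of the IL-18 receptor. The IL-4 receptor acts through JAK kinases and the transcription factor STAT6, which is known for binding palindromes of TTC and GAA with 4 bases between them.

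The 29 CREs lay between positions 40080455 and 40541807 of mm10 chromosome 1, a span of 461 kb. Il1r2 had 6 of them, Il1r1 6, Il1rl2 4, Il1rl1 8, Il18r1 2 and Il18rap 3. By the RefSeq annotation 13 lay in introns, 7 were promoter CREs within 1 kb of a start, 5 were intergenic and 4 overlapped exons. Their median width was 1617 bases against 1652 for all CREs. A CRE is named here by its gene and its distance in kb from the nearest RefSeq start, with a minus for upstream, and predicted transcript models were counted among the starts. With curated models alone 23 of the 29 remained within 25 kb, and Il1r1-7.2kb, for example, lay 15058 bases downstream of the curated Il1r1 start. Il18r1 was the only gene of the cluster without a promoter CRE in the table.

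Sequences of 6 stretches are printed because the results turn on them. The first is the centre of the CRE that gave the cluster its place in this study, Il1rl2-2.2kb (chr1:40321234-40323610, intergenic), and the next is the part of the same CRE that holds its only STAT6 palindrome. The others are the centres of Il1r1+7.2kb (chr1:40273031-40274582, intron), with the largest IL-4 difference among the Il1r1 CREs, of Il1rl1-11.8kb (chr1:40391932-40394211, intergenic) and Il18r1+9.9kb (chr1:40475095-40476697, intron), with the largest falls after LPS at their genes, and of Il18rap-13.2kb (chr1:40501351-40502982, intergenic), which rose late after LPS. They were read from the mm10 forward strand, and capitals mark each match to this palindrome (TTC, 4 bases of any kind, GAA), which is found alike on both strands.
Il1rl2-2.2kb centre, chr1:40322273-40322572: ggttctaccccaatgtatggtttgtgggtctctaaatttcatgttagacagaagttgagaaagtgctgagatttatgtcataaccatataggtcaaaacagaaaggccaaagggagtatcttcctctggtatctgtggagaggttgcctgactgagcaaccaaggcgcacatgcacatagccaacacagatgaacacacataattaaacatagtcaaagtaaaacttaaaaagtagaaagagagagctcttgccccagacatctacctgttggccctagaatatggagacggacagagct
Il1rl2-2.2kb flank, chr1:40322690-40322789: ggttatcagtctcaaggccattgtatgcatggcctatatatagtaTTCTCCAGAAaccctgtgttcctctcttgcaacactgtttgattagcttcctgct
Il1r1+7.2kb centre, chr1:40273657-40273956: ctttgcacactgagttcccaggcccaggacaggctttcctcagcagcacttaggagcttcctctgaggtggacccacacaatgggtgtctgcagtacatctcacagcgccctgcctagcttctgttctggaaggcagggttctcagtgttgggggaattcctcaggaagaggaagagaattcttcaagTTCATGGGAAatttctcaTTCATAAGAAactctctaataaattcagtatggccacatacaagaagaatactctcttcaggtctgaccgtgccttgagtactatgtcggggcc
Il1rl1-11.8kb centre, chr1:40392922-40393221: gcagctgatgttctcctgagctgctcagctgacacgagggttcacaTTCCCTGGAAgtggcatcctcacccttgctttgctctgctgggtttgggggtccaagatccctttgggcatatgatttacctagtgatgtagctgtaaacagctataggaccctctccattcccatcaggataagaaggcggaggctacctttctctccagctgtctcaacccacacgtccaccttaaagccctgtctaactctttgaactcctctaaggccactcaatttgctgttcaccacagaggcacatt
Il18r1+9.9kb centre, chr1:40475747-40476046: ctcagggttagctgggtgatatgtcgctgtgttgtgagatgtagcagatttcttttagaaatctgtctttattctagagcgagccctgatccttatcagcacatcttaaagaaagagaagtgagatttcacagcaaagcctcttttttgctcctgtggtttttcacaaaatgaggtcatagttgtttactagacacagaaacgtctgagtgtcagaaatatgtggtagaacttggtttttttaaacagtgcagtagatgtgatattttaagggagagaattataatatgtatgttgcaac
Il18rap-13.2kb centre, chr1:40502017-40502316: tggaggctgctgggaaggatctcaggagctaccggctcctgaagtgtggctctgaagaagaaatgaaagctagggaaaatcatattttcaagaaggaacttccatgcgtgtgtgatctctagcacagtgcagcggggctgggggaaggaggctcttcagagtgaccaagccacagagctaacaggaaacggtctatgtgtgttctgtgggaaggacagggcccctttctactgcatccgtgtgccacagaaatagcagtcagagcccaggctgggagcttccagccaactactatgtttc

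In the central 300 bases, the palindrome with 4 bases between its arms was found in 7 of the 29 CREs (24.1%) and in 9.21% of all CREs. The variant with 3 bases between TTC and GAA, known from other STAT factors, was found in 3 (10.3%) against 9.40%. GGAAGT, the core bound by ETS factors such as PU.1, was found in 17 (58.6%) against 37.3%, and TGANTCA, the motif of AP-1, in 11 (37.9%) against 20.2%. Every motif was searched on both strands, and a STAT palindrome can share letters with GGAAGT. In the whole of Il1rl2-2.2kb the 4-base palindrome occurred 1 time, 318 bases from the centre, and 48.6% of windows of its length around all CREs held at least 1. The median GC content of the windows was 45% in the cluster and 48.3% over all CREs. A match is a description of the letters and not a bound site.

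The DMSO course of LPS asked which CREs of the cluster changed their acetylation in macrophages without an inhibitor. A CRE was called where the moderated F-test of limma over the 4 times against UT gave an adjusted p under 0.01 and the log2 difference passed 1 in size at 1 or more times. An adjusted p printed beside a difference in a DMSO course is that of this F-test, not of the single time, unless stated. Of the 26 CREs with a mean high enough for the test, 21 (80.8%) were called, against 53.5% of all CREs tested. The mean was taken over the UT and LPS libraries together. Il1r2+2.8kb (9 and 9 in UT) and Il1rl2+13.7kb (4 and 2 in UT), both called higher, reached it through their LPS values. Without a limit on the mean 20 of the 21 kept their calls. Calls to lower values made up 15 of the 26 (57.7%, against 24.5% of all CREs) and calls to higher values 6 (23.1%, against 29% of all CREs). The falls lay over Il1rl1, with 7 of 8 CREs lower, and over Il18r1, with 2 of 2 lower. Il18rap had 2 of 3 CREs higher, while Il1r2 and Il1r1 had 1 higher and 2 lower each and Il1rl2 had 2 of each kind. The median log2 difference of the 26 CREs was −0.32 at 30 min, −0.11 at 1 h, −0.62 at 2 h and −0.58 at 4 h, and that of all CREs was 0.05, 0.09, 0.02 and 0.08. These are bulk samples, in which fewer cells carrying the mark and less mark per cell cannot be told apart.

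The IL-4 course of the DMSO libraries chose the cluster, so its values are not evidence that these CREs respond. As a description, 10 of the 27 CREs with a high enough mean lay past the limits of the same rule, each of them higher, as did 13.6% of all CREs. The 10 were spread over Il1rl1 with 4, Il1rl2 with 3, Il1r1 with 2 and Il18rap with 1. Among them, Il1r1+7.2kb (4 and 2 in UT) reached the mean needed through its IL-4 values. The median log2 difference of the 27 CREs was 0.92 at 30 min, 0.65 at 1 h, 0.34 at 2 h and 0.50 at 4 h, beside 0.09, 0.03, −0.03 and 0.05 over all CREs. The DMSO courses of LPS and IL-4 share their UT libraries.

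**Figure D1:**
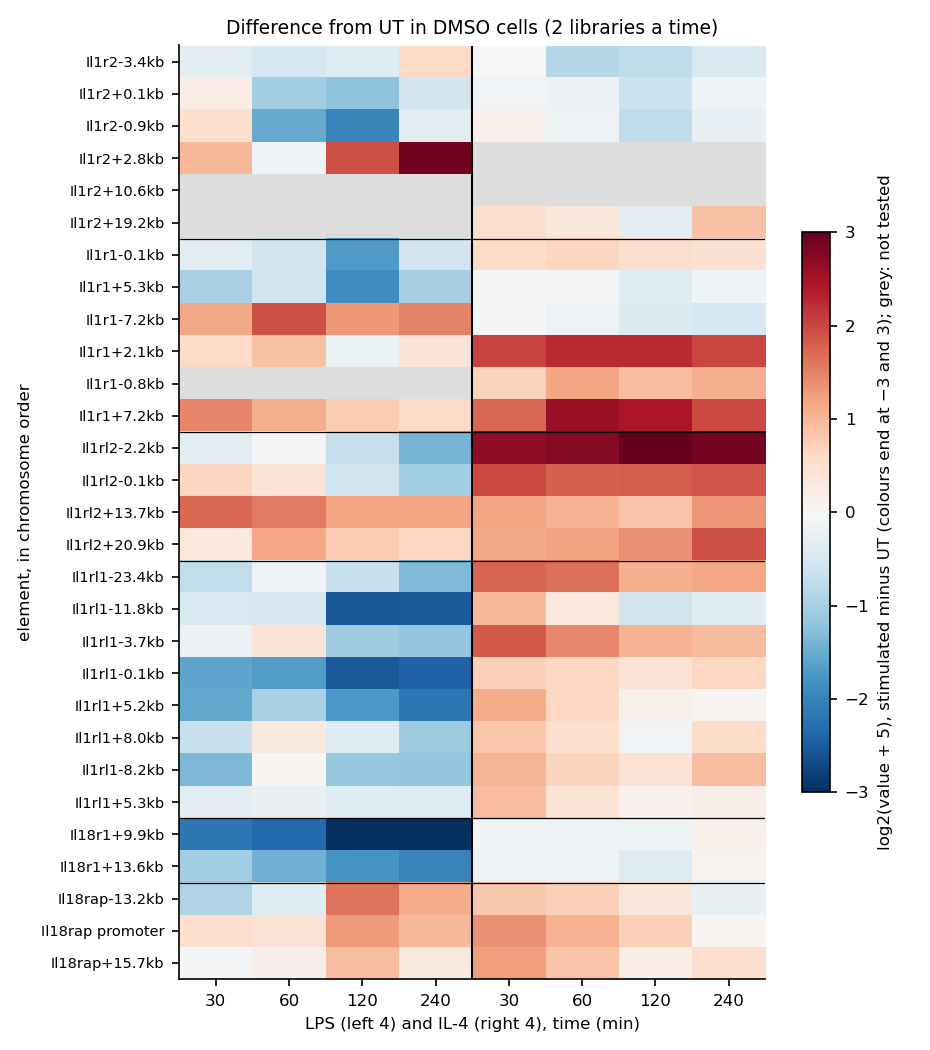
Log2 difference from UT of the 29 CREs (rows, in genome order) in DMSO-treated BMDMs at 4 times after LPS and after IL-4 (columns), each cell the difference of 2 stimulated from 2 UT libraries, with grey for CREs not tested. The rows of Il1rl1 and Il18r1 are mostly blue after LPS, down to −3.25 at Il18r1+9.9kb, and the strongest red after IL-4 is at Il1rl2-2.2kb with 3.03.

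The same question was put to the CKI libraries, which the choice of the cluster did not use. For each CKI with UT and all 4 times, the response was the mean over the 4 times of log2(value + 5) minus that of its own UT, and limma tested whether its mean over CKIs differed from 0. A call needed an adjusted p under 0.01 and a mean response over 0.5 in size. Each CKI is a different treatment, so these values show a response in the presence of many inhibitors and not the replicates of 1 condition. After IL-4, with 53 CKIs, 15 of the 29 CREs (51.7%) were called and each was higher, against 9.74% of all CREs called higher and 7.88% called lower. They were 4 of 4 CREs of Il1rl2, 6 of 8 of Il1rl1, 3 of 6 of Il1r1 and 2 of 3 of Il18rap. After LPS, with 52 CKIs, 13 of 29 (44.8%) were called against 39.9% of all CREs, 6 higher (20.2% of all CREs) and 7 lower (19.7% of all CREs). The median response of the 29 CREs was 0.51 after IL-4 and −0.04 after LPS, beside 0.07 and 0.09 over all CREs. The responses to LPS and IL-4 share the UT libraries of each CKI. With the IL-4 libraries set to the same distribution of values by quantile normalization, 10 of the 15 kept their call, and Il1r1-0.8kb, Il1rl2+13.7kb, Il1rl1-0.1kb, Il1rl1+5.2kb and Il1rl1+8.0kb lay between 0.45 and 0.49.

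**Figure D2:**
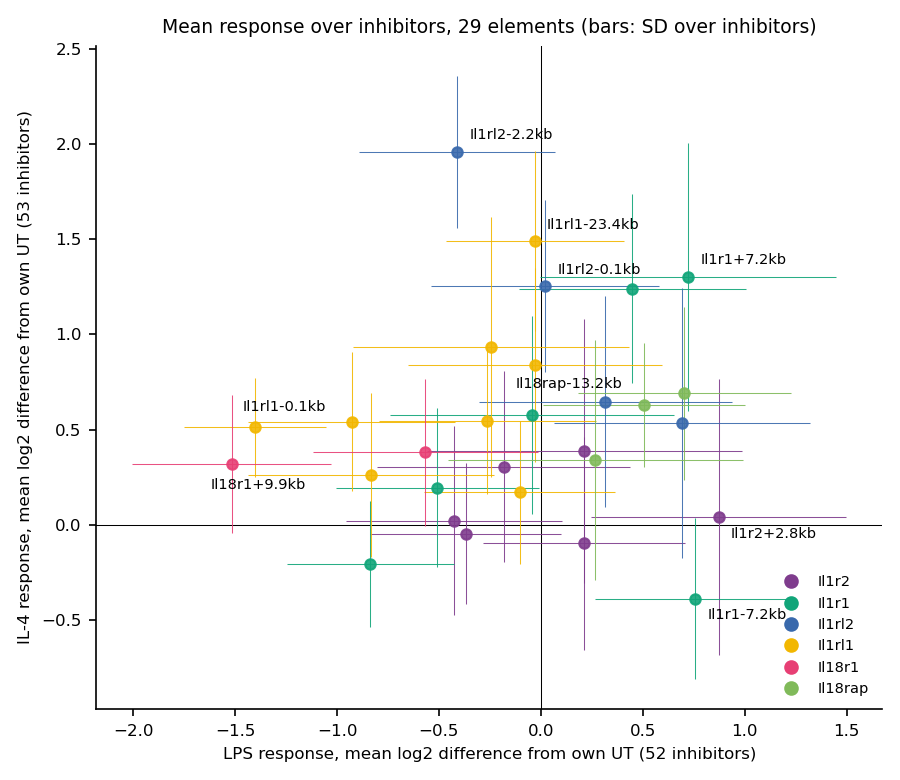
Mean response across CKIs of each of the 29 CREs to LPS (x axis, 52 CKIs) and to IL-4 (y axis, 53 CKIs), as log2 difference from UT, with bars for the SD over CKIs and colours for the genes. Il1rl2-2.2kb stands highest on the IL-4 axis at 1.96, and Il18r1+9.9kb and Il1rl1-0.1kb stand farthest to the left at −1.52 and −1.40.

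Il1r2, the decoy receptor, showed opposite changes after LPS at its start and in its first part. The promoter CRE Il1r2+0.1kb (chr1:40085112-40086765) held 55 and 52 in the UT libraries and, after LPS, 56 and 72 at 30 min, 33 and 16 at 1 h, 24 and 17 at 2 h and 46 and 25 at 4 h. All LPS libraries from 1 h on were below both UT libraries, and the log2 difference was largest at 2 h, at −1.21 ± 0.32 (SE, adjusted p = 2.67e-04). The neighbouring Il1r2-0.9kb dropped by 1.99 at 2 h (SE 0.29, adjusted p = 2.01e-09) and was back among its UT values of 57 and 79 with 1 of its 4 h libraries, at 59 and 46. The intronic Il1r2+2.8kb (chr1:40090550-40092136) went the other way, from 9 and 9 in UT to 15 and 34 at 30 min, 14 and 4 at 1 h, 53 and 44 at 2 h and 121 and 82 at 4 h. Its 2 h and 4 h libraries lay above all earlier ones, with a log2 difference of 2.90 ± 0.36 at 4 h (adjusted p = 3.97e-09). Its LPS values also gave it the mean needed for the test. Across 52 CKIs Il1r2+2.8kb had a mean LPS response of 0.87 (SD 0.63), above 0 with 45 CKIs, and at 4 h alone of 1.67, above 0 with 50. Its CKI libraries at 4 h of LPS ranged from 53 over a median of 101 to 166, and in UT from 5 over 26 to 90. The promoter CRE had a mean LPS response of −0.43 with 44 CKIs below 0, which did not reach the size for a call. It was at 0.27 at 30 min, above 0 with 35 CKIs, and at −0.86 at 2 h, above 0 with 4. After IL-4 the DMSO libraries of Il1r2+2.8kb held between 2 and 11, around their UT values, and the mean IL-4 responses of the 6 Il1r2 CREs across CKIs lay between −0.10 and 0.39.

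Il1r1, the signalling IL-1 receptor, held CREs with unlike courses along its first introns. The promoter CRE Il1r1-0.1kb (chr1:40224148-40225753) read 47 and 40 in UT and 33 and 34, 26 and 30, 8 and 12, and 27 and 28 at the 4 times of LPS. Every LPS library was below both UT libraries, and the difference at 2 h was −1.70 ± 0.31 (adjusted p = 1.64e-04). Il1r1+5.3kb also dropped by 1.85 at 2 h (SE 0.29). Further into the gene, Il1r1-7.2kb (chr1:40238873-40241402, intron) rose from 51 and 57 to 135 and 114 at 30 min, 213 and 218 at 1 h, 142 and 137 at 2 h and 156 and 165 at 4 h. No LPS library of this CRE overlapped with UT, and the difference at 1 h was 1.90 ± 0.18 (adjusted p of the course = 4.07e-10). Across CKIs the mean LPS response was −0.51 at the promoter with 45 of 52 CKIs below 0, −0.84 at Il1r1+5.3kb with 50 below, and 0.75 at Il1r1-7.2kb with 48 above. The call of the promoter CRE was lost without PH797804, at −0.49.

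IL-4 values in the DMSO libraries stood high at 2 other CREs of Il1r1. Il1r1+2.1kb (chr1:40251923-40253488, intron) held 12 and 9 in UT and, after IL-4, 54 and 61, 65 and 70, 60 and 77, and 57 and 57 at the 4 times. Il1r1+7.2kb, with 2 STAT6 palindromes in its central 300 bases, held 4 and 2 in UT and 24 and 19, 42 and 44, 38 and 39, and 24 and 29 after IL-4. In both CREs all IL-4 libraries were above UT. Across 53 CKIs, none of them used to choose the cluster, Il1r1+2.1kb had a mean IL-4 response of 1.24 (SE 0.07, range 0.17 to 2.27) and was above 0 with 53 of 53. Il1r1+7.2kb had 1.30 (SE 0.09) and was above 0 with 51 of 53. Its CKI libraries ranged from 0 over a median of 18 to 71 in UT and from 23 over 56 to 155 at 2 h of IL-4, so the extremes overlapped. After LPS, Il1r1+7.2kb held 13 and 22 at 30 min and 6 and 8 at 4 h in DMSO cells and was not called (1.47 ± 0.45 at 30 min, adjusted p of the course = 0.0437). Across 52 CKIs it was called higher after LPS as well, with a mean response of 0.72 (SE 0.10, adjusted p = 7.70e-10), above 0 with 43. That of Il1r1+2.1kb was 0.45, above 0 with 42, and under the size for a call. Il1r1-7.2kb had a mean IL-4 response of −0.39 with 44 of 53 CKIs below 0, which was under the size for a call.

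Il1rl2, the IL-36 receptor gene, held the CRE with the strongest IL-4 values of the cluster. Il1rl2-2.2kb stood at 37 and 34 in UT and, after IL-4, at 234 and 266 at 30 min, 260 and 273 at 1 h, 323 and 328 at 2 h and 307 and 276 at 4 h. The values were far above UT from the first time on and changed less from then to 4 h than between UT and 30 min. The promoter CRE Il1rl2-0.1kb (chr1:40323716-40325316), whose edge lies next to it, read 38 and 34 in UT and 169 and 143, 117 and 158, 130 and 147, and 126 and 172 after IL-4. It was as high at 30 min as later. The exonic Il1rl2+20.9kb (chr1:40345853-40347480) was slower, with 23 and 21 in UT, 46 and 63 at 30 min and 84 and 113 at 4 h.

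**Figure D3:**
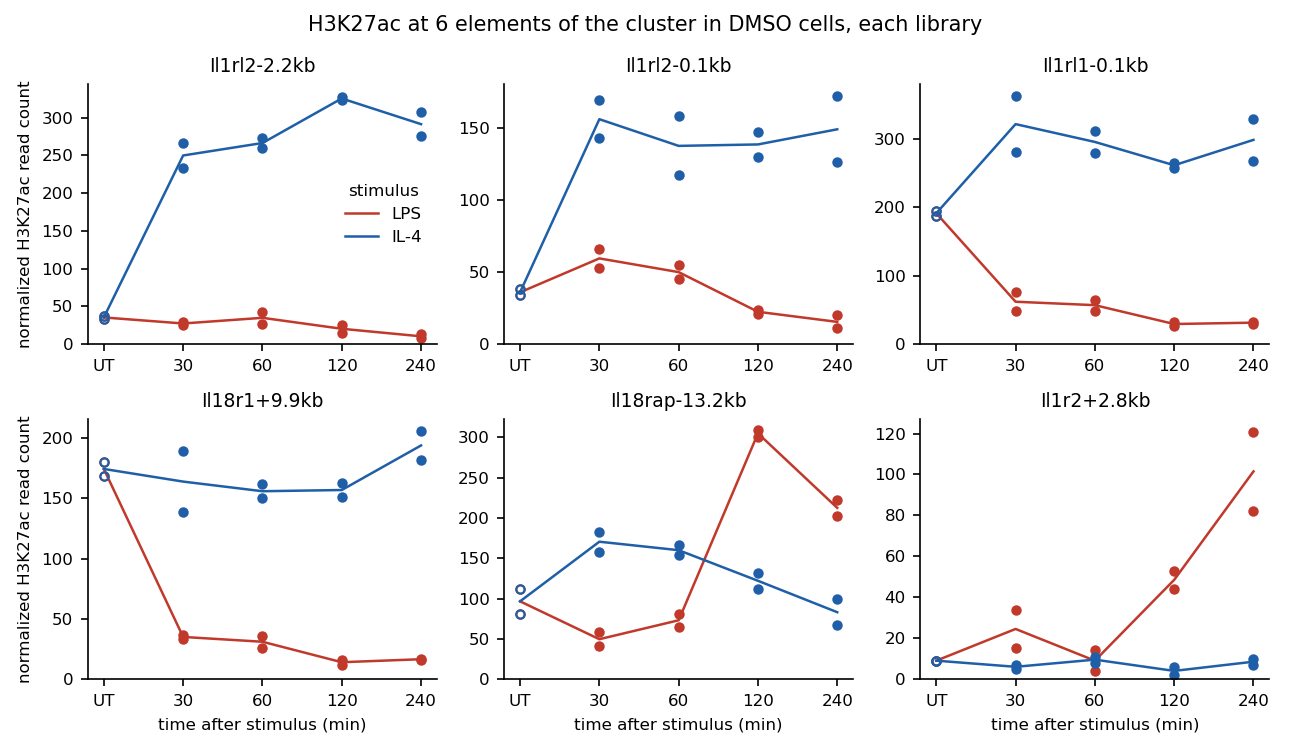
Scaled read counts of 6 CREs in each of the 18 DMSO libraries (points) against time, with lines through the group means, UT as open points at time 0, LPS in red and IL-4 in blue. The IL-4 points of Il1rl2-2.2kb sit between 234 and 328 above UT at 37 and 34, and the LPS points of Il18r1+9.9kb sit between 12 and 37 below UT at 169 and 180.

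The CKI libraries, which the rule did not use, carried the IL-4 response of these CREs as well. They were kept partly on enrichment at a locus inside Il1rl2-2.2kb, so its values in them are not independent of that selection. Il1rl2-2.2kb ranged from 32 over a median of 63 to 141 in 73 UT libraries and from 133 over 250 to 316 in 60 libraries at 30 min of IL-4. At 2 h it ranged from 216 over a median of 300.5 to 417 in 58 libraries, and no library at 2 h overlapped with the UT libraries. The mean response over 53 CKIs was 1.96 (SE 0.05, SD 0.40, range 0.97 to 2.89, adjusted p = 5.00e-50) and was above 0 with every one of them, with 1.81, 1.97, 2.11 and 1.96 at the 4 times. In the same measure the DMSO libraries gave 2.82, and the CKI libraries differed from these in contrast and depth, whose part in that gap was not tested. Il1rl2-0.1kb had a mean response of 1.25 (SE 0.06, range 0.32 to 2.15), above 0 with 53 of 53 CKIs, and Il1rl2+20.9kb and Il1rl2+13.7kb had 0.65 and 0.54.

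After LPS the 4 CREs of Il1rl2 were all called in DMSO cells, 2 higher and 2 lower, but each call was lost when 1 library was left out. Il1rl2-2.2kb read 30 and 25, 43 and 27, 26 and 15, and 13 and 8 at the 4 times, with a difference of −1.40 ± 0.34 at 4 h (adjusted p = 0.00188). Every library from 2 h on was below UT, and without replicate 2 at 4 h the difference was −1.17 and no longer called (adjusted p = 0.0392). The promoter CRE read 53 and 66, 45 and 55, 24 and 21, and 11 and 20, so it was above both UT libraries up to 1 h and below them from 2 h. Its difference at 4 h was −1.03 ± 0.30. The adjusted p was 2.50e-05 for the course by the F-test and 0.00386 for 4 h alone by the moderated t-test. This CRE lost its call without replicate 1 at 4 h (−0.71) and without UT replicate 1 (−0.96). The calls to higher values at Il1rl2+13.7kb (1.73 ± 0.39 at 30 min, from 4 and 2 in UT) and Il1rl2+20.9kb (1.16 ± 0.29 at 1 h) were lost when either UT library was left out, with adjusted p-values of 0.011 and 0.0549 for the former without replicates 1 and 2 and of 0.0287 and 0.0449 for the latter. That of Il1rl2+20.9kb was also lost without either library at 1 h or at 2 h, with adjusted p-values of 0.01002 to 0.0718. Across 52 CKIs the mean LPS response of Il1rl2-2.2kb was −0.41 with 42 below 0 and that of the promoter CRE 0.02 with 27 above 0, and neither was called. The mean of the promoter CRE joined 0.54 at 30 min, above 0 with 40 CKIs, and −0.55 at 4 h, above 0 with 12, and its 30 min value was above its 4 h value with 48 of 52. That of Il1rl2+13.7kb was 0.69 and was called.

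The IL-4 response of Il1rl2-2.2kb differed between CKIs. It was lowest with Afatinib at 0.97, MK2461 at 1.33, AZD8186 at 1.35, IMD0354 at 1.44 and Filgotinib at 1.49, and highest with TG100115 at 2.89, Telatinib at 2.85, Refametinib at 2.58, GSK461364 at 2.54 and TG100572 at 2.53. With Afatinib, an inhibitor of EGFR-family receptors, the CRE held 117 in UT and 195, 267, 279 and 207 over the IL-4 times, and with TG100115, a PI3K inhibitor, 38 in UT and 264, 337, 336 and 321. The 5 lowest responses thus came with UT values of 81 to 117, and the 5 highest with UT values of 35 to 48.5. The response subtracts the UT value, so the 2 are tied by construction and nothing is read from this. Most CKIs have 1 library per time, so an order of single CKIs carries no replicate error of its own.

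**Figure D4:**
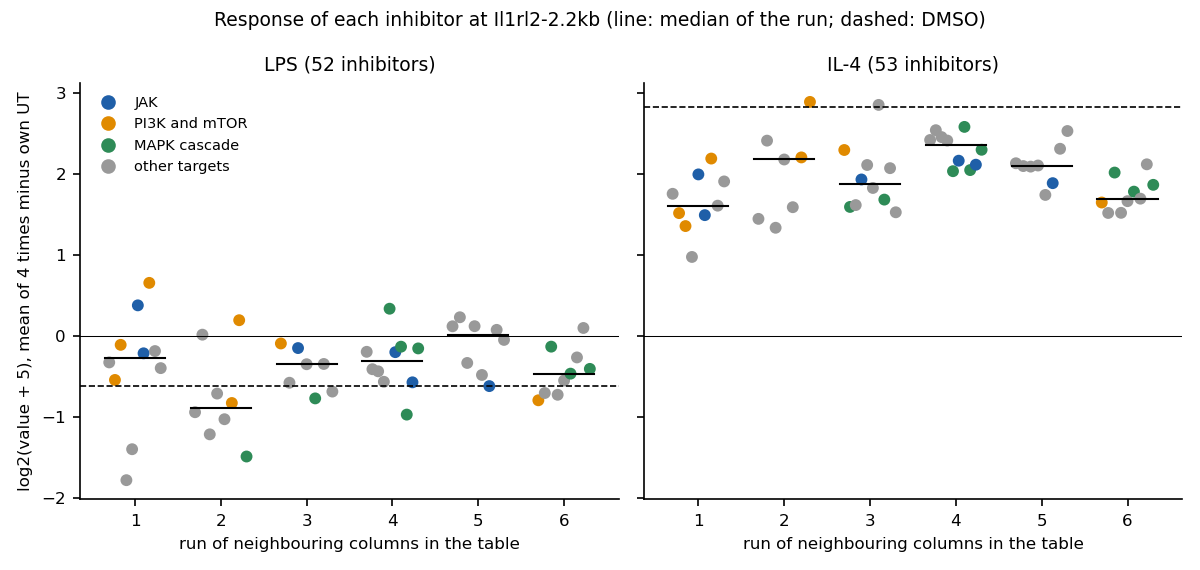
Response of Il1rl2-2.2kb to IL-4 and to LPS with each CKI (points, 1 per CKI, y axis as mean log2 difference from the CKI's own UT) by the 6 consecutive runs of CKIs in the column order of the table (x axis), coloured by inhibitor family, with a solid line at the median of a run and a dashed line at the DMSO value. The IL-4 medians of the runs lie between 1.61 and 2.35, below the DMSO line at 2.82, and the points of the JAK inhibitors lie among the others.

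CKIs stood in 6 consecutive runs in the column order of the table, which differed in depth and were used as a technical batch. The runs were inferred from this order alone. The median IL-4 response of Il1rl2-2.2kb was 1.61, 2.18, 1.88, 2.35, 2.10 and 1.69 in runs 1 to 6. Across 53 CKIs the response rose with the mean log2 contrast of the libraries (Pearson r = 0.40, permutation p = 0.0028, adjusted p = 0.0056; Spearman rho = 0.42, permutation p = 0.0019, adjusted p = 0.0056) and r was 0.39 without the 2 CKIs of most extreme contrast. With the mean log2 estimated reads, r was 0.40 (permutation p = 0.0027, adjusted p = 0.0056), rho was 0.41 and r without the 2 extreme CKIs was 0.44. Within the runs r lay between −0.64 and 0.27 for contrast and between −0.75 and 0.18 for reads, so neither relation held within runs. The permutations shuffled CKIs across runs, so their p-values take no account of the run. The p-values were adjusted over 8 coefficients, those after LPS included, where r was 0.02 and 0.13.

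Because the IL-4 receptor acts through JAK kinases, the 6 JAK inhibitors were set against the other 47 CKIs, with the run as a covariate. The 47 included Apitolisib and TG100572, which the study dosed for JAK1 and TYK2 and whose IL-4 responses at Il1rl2-2.2kb were 1.64 and 2.53. According to the paper, the binding assay behind the doses linked Filgotinib, Tofacitinib and BMS911543 to other kinases and not to JAK kinases. Momelotinib was used at a concentration for the kinase IKBKE. The JAK group here is thus defined by the kinases its CKIs were developed against, and not by their doses. The comparison therefore does not separate CKIs dosed for a JAK kinase from all others, and the differences below do not show the effect of such a dose. At Il1rl2-2.2kb the mean IL-4 response was 1.93 with JAK inhibitors and 1.97 with the others, a run-adjusted difference of −0.08 with a 95% interval from −0.36 to 0.21 (limma adjusted p = 1.00). The 6 single responses were 1.49 with Filgotinib, 1.88 with Ruxolitinib, 1.93 with Momelotinib, 1.99 with BMS911543, 2.11 with Tofacitinib and 2.16 with Pacritinib, within the range of the other CKIs. For 9 inhibitors of the MAP kinase cascade the difference was −0.08 (−0.34 to 0.17, adjusted p = 1.00), and for 7 inhibitors of PI3K or mTOR it was 0.28 (0.01 to 0.54, adjusted p = 0.707). These intervals cover the doses used, at which inhibition in the cells was not measured here.

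Over the 29 CREs, 2 stimuli and 3 families, 0 differences passed an adjusted p under 0.05 in limma, and 0.387% of all CREs passed for PI3K or mTOR after LPS and 0% in each of the other 5 comparisons. At an unadjusted p under 0.05, 8 member differences passed. PI3K or mTOR inhibitors after LPS gave 4, at Il1r2+10.6kb (0.86), Il1r2+19.2kb (0.69), Il1rl1+8.0kb (0.47) and Il1rl1-0.1kb (0.39, SE 0.16). MAP kinase cascade inhibitors after LPS gave 2, at Il1rl2+20.9kb (−0.62) and Il1rl1+8.0kb (−0.44), and PI3K or mTOR inhibitors after IL-4 gave 2, at Il1r1+2.1kb (0.46) and Il1rl2-2.2kb. JAK inhibitors gave none with either stimulus. Over all CREs, 10818 of 59163 passed this unadjusted level after LPS for PI3K or mTOR, 3645 for the MAP kinase cascade and 1279 for JAK, and 4163, 819 and 1004 of 59150 passed it after IL-4, so nothing is read from the 8.

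Il1rl1, which encodes ST2, fell after LPS over most of its CREs. The CRE at its predicted upstream start, Il1rl1-0.1kb (chr1:40403916-40405694), held 195 and 187 in UT and, after LPS, 48 and 76 at 30 min, 65 and 49 at 1 h, 32 and 27 at 2 h and 30 and 33 at 4 h. Every LPS library was far below UT, and the difference at 2 h was −2.51 ± 0.25 (adjusted p = 2.76e-10). Il1rl1-11.8kb held 79 and 83 in UT and 33 and 97, 58 and 56, 8 and 12, and 14 and 7 after LPS. It overlapped with UT at 30 min, through 1 library, and was far below it from 2 h, with a difference of −2.53 ± 0.35 at 2 h (adjusted p = 4.88e-09). Il1rl1+5.2kb dropped by 2.16 at 4 h (SE 0.29, adjusted p = 5.74e-07). The CRE at the far end, Il1rl1+5.3kb, which overlaps an exon downstream of the curated start, held 34 and 41 in UT and was not called, with differences from −0.21 to −0.39. Of the other calls, that of Il1rl1-8.2kb (−1.34 at 30 min) held whichever library was left out. Il1rl1-23.4kb (−1.32 at 4 h) lost its call without 4 h replicate 1 (adjusted p = 0.0146) or UT replicate 1 (adjusted p = 0.0105), and Il1rl1+8.0kb (−1.09 at 4 h) without 4 h replicate 2, at −0.9996. Il1rl1-3.7kb (−1.16 at 4 h) lost its call without 4 h replicate 1 (−0.81), UT replicate 1 (−0.82), 1 h replicate 2 (adjusted p = 0.0337) or 2 h replicate 2 (adjusted p = 0.0135).

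Across 52 CKIs the fall at Il1rl1-0.1kb was seen with every one. Its mean LPS response was −1.40 (SE 0.05, SD 0.35), from −1.99 with X396 to −0.50 with BGT226, beside −2.05 in DMSO. The CKI libraries ranged from 55 over a median of 132 to 201 in UT and from 10 over 36 to 91 at 2 h of LPS. Il1rl1+5.2kb followed with −0.93 (49 of 52 below 0) and Il1rl1-11.8kb with −0.83 (50 of 52 below 0), the latter falling late, with −1.38 at 2 h and −1.45 at 4 h. The 4 CREs Il1rl1-23.4kb, Il1rl1-3.7kb, Il1rl1+8.0kb and Il1rl1-8.2kb, called lower in the DMSO course, had mean LPS responses from −0.26 to −0.03 and were not called across CKIs.

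After IL-4 the DMSO libraries of Il1rl1 stood highest at 30 min. Il1rl1-23.4kb (chr1:40380632-40382274, intergenic) held 57 and 48 in UT and 209 and 167, 169 and 183, 111 and 121, and 113 and 135 at the 4 times. Il1rl1-11.8kb held 179 and 148 at 30 min, 97 and 107 at 1 h, 52 and 51 at 2 h and 56 and 69 at 4 h, so it was above its UT values of 79 and 83 up to 1 h and below them from 2 h. Il1rl1-0.1kb held 362 and 280, 279 and 311, 257 and 265, and 329 and 267, all above its UT values of 195 and 187. In the CKI libraries the mean IL-4 response was highest at 1 h at 7 of the 8 CREs and at 30 min at 1. At Il1rl1-23.4kb it was 1.49 over all times (SE 0.06, range 0.71 to 3.13), above 0 with 53 of 53 CKIs, beside 1.41 in DMSO. At Il1rl1-11.8kb it was 0.74 at 30 min, above 0 with 51 CKIs, and −0.24 at 2 h, above 0 with 15. Il1rl1-0.1kb had 0.51, above 0 with 51, Il1rl1-8.2kb had 0.94 and Il1rl1-3.7kb had 0.84.

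Il18r1, the ligand-binding chain of the IL-18 receptor, held the steepest LPS fall of the cluster. Il18r1+9.9kb read 169 and 180 in UT and, after LPS, 33 and 37 at 30 min, 36 and 26 at 1 h, 16 and 12 at 2 h and 17 and 16 at 4 h. All 8 LPS libraries lay far below UT, already at 30 min, and the difference reached −3.25 ± 0.29 at 2 h (adjusted p = 1.29e-11). Il18r1+13.6kb read 74 and 59 in UT and 18 and 14 at 2 h and 10 and 16 at 4 h of LPS, with a difference of −1.77 ± 0.32 at 2 h (adjusted p of the course = 9.30e-06). Across 52 CKIs the mean LPS response was −1.52 at Il18r1+9.9kb (SE 0.07, SD 0.49), from −2.40 with GSK461364 to −0.42 with Neratinib and below 0 with every CKI, and −0.57 at Il18r1+13.6kb. The CKI libraries of Il18r1+9.9kb ranged from 46 over a median of 102 to 179 in UT and from 7 over 25 to 58 at 4 h of LPS. After IL-4 the DMSO libraries of Il18r1+9.9kb held between 139 and 206 around their UT values. Across CKIs its mean IL-4 response was 0.32 with 47 of 53 above 0, past the adjusted p but under the size for a call.

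At Il18rap, which encodes the accessory chain of the IL-18 receptor, acetylation of 2 of 3 CREs rose after LPS, while it fell at the 2 intronic CREs of Il18r1. Il18rap-13.2kb read 112 and 81 in UT and, after LPS, 41 and 58 at 30 min, 81 and 65 at 1 h, 309 and 301 at 2 h and 203 and 222 at 4 h. The libraries at 30 min were below both UT libraries and those at 2 h and 4 h above them, with differences of −0.90 at 30 min and 1.63 ± 0.20 at 2 h (adjusted p of the course = 3.03e-13). The promoter CRE of Il18rap (chr1:40514547-40516125) read 108 and 77 in UT and 117 and 148, 154 and 101, 227 and 232, and 173 and 196 after LPS. It overlapped with UT through 1 library at 1 h and was above it at 2 h, by 1.28 ± 0.20 (adjusted p = 5.06e-06).

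Across 52 CKIs Il18rap-13.2kb kept the dip and the rise, with a mean LPS response of −0.44 at 30 min, above 0 with 11 CKIs, of 1.45 at 2 h, above 0 with 52, and of 0.97 at 4 h, above 0 with 49. Averaged over the times the response was 0.51 (SE 0.06), and it was 0.70 at the promoter CRE (SE 0.07, above 0 with 48 of 52). After IL-4 the DMSO libraries of the promoter CRE held 247 and 242 at 30 min, 165 and 227 at 1 h, 141 and 164 at 2 h and 83 and 108 at 4 h, high at first and back at the UT values by 4 h. In the CKI libraries its mean IL-4 response was 0.97 at 30 min and 0.28 at 4 h, and that over all times 0.69 with 51 of 53 above 0. Il18rap-13.2kb had 0.63 with 52 of 53 above 0.

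Each CKI was also set against DMSO directly, as 1 coefficient over the times of a course and UT, called at an adjusted p under 0.05 and a log2 difference over 0.5. Of the 1682 pairs of a CKI and a member CRE in the LPS course, 612 (36.4%) were called higher and 42 (2.50%) lower, against 32.3% and 4.04% of all pairs. In the IL-4 course 442 (26.3%) were higher and 144 (8.56%) lower, against 36.2% and 3.03%. These differences moved with the scaling of the libraries. The median of all pairs was 0.39 in the LPS course and 0.41 in the IL-4 course and became 0.00 in both after quantile normalization. That of the member pairs was 0.54 and 0.20, and −0.05 and −0.15 after it. The share of calls that were lower moved from 6.42% to 79.7% in the LPS course, of 79 calls (4.62% of all pairs called, 2.63% lower), and from 24.6% to 91.5% in the IL-4 course, of 164 calls (6.57% of all pairs called, 3.77% lower).

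A few CREs were lower with many CKIs under either scaling. The promoter CRE of Il18rap was called lower with 34 of 58 CKIs in the LPS course and with 44 in the IL-4 course, and after quantile normalization with 20 and 28, with median differences of −0.69 and −0.73 that became −0.66 and −0.73. Il1rl1-0.1kb was called lower with 41 CKIs in the IL-4 course (28 after quantile normalization, median −0.57 and −0.53) and Il18r1+9.9kb with 21 (11 after it, median −0.43 and −0.44). Il1rl2-2.2kb in the IL-4 course lay between −0.18 and 0.47 with a median of 0.11, inside the size limit for a call with every CKI. In the LPS course it was called higher with 48 CKIs, and with 1 after quantile normalization, where its median went from 1.08 to 0.30. The 10 DMSO libraries of a course are the reference of all 58 differences, so these are not independent. The IL-4 course includes the libraries that chose the cluster, and the LPS course shares the UT libraries among them.

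**Figure D5:**
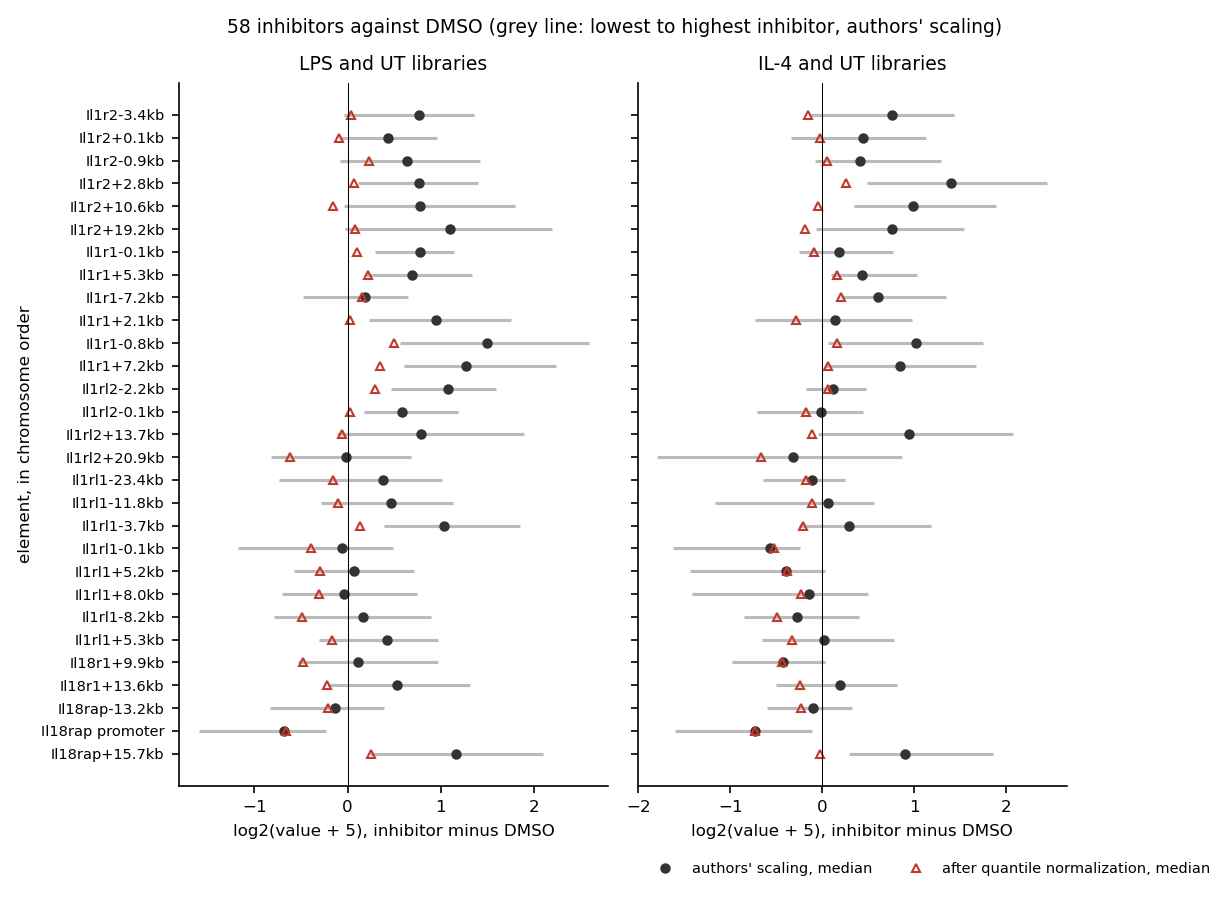
Median over 58 CKIs of the log2 difference from DMSO at each of the 29 CREs in the LPS course and in the IL-4 course, as scaled by the authors (black dots) and after quantile normalization (red triangles), with grey lines from the lowest to the highest CKI. Most medians move to the left after quantile normalization, while the Il18rap promoter stays near −0.7 in both courses.

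At the edge of the 25 kb rule, Il1rl1-23.4kb and Il1rl2+20.9kb were the last CREs inside. The first outside was Il1r1+26.1kb (chr1:40291577-40293768), with 29 and 46 in UT and 172 and 207 at 4 h of IL-4 in DMSO, a log2 difference of 2.22. Next came Il1r1+28.4kb, with 293 and 258 in UT, a difference of −2.26 after LPS and of 0.27 after IL-4, and Il1rl2+30.1kb, with 60 and 29 in UT and 1.57 after IL-4. Farther out, Il1rl2+33.6kb and Il1r1-48.2kb differed by 2.89 and 3.45 after LPS.

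Genes of the same pathway that lie elsewhere were followed at their promoter CREs in the DMSO courses. Of all CREs tested, 29% were called higher and 24.5% lower after LPS, and 13.6% higher and 11% lower after IL-4. The lists were not tested against these shares. Of 15 ligand genes of the family and their soluble inhibitors, 5 had a promoter CRE, and 5 of 5 were called higher after LPS, with 4.01 at Il1a, which encodes IL-1 alpha, 2.93 at Il1rn, the receptor antagonist, 2.36 at Il18bp, the binding protein of IL-18, 2.08 at Il18 and 1.81 at Il33. Il33, with a mean of 7 in UT, reached the mean needed for the test through its LPS values. After IL-4, 2 of 4 tested were called, Il1a with 1.89 and Il1rn with 1.03. The 16 genes of accessory chains and signalling had 18 promoter CREs, of which 7 were higher after LPS, among them Tab2 (1.71), Irak2 (1.64) and Peli1 (1.61), and 2 were lower, Peli2 (−1.91) and Tab1 (−1.29). After IL-4, 1 of the 18 was called, Il1rap, the accessory chain shared by the receptors of IL-1, IL-33 and IL-36, with 1.33. Of 7 genes of IL-4 signalling with a promoter CRE, 4 were higher after LPS, Jak2 (2.73), Socs1 (2.45), Il2rg (1.86) and Tyk2 (1.56), and Stat6 was lower (−1.28), while after IL-4 Socs1 (2.25) and Jak2 (1.22) were higher. The medians of the largest differences in the 3 lists were 2.36, 0.73 and 1.56 after LPS and 0.88, −0.09 and 0.35 after IL-4.

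Over the 9 DMSO group means, the course of Il1rl2-2.2kb was compared with that of 18710 CREs whose means spanned at least 2 on the log2 scale. The most alike by Pearson's r were CREs nearest to Gfra2 (0.994), Cxcr4 (0.994), Zfp365 (0.993), Tmem273 (0.993) and Cited2 (0.992). The CRE near Gfra2, for example, had means of 14 in UT, 167.5 at 2 h of IL-4 and 8.5 at 2 h of LPS. Within the cluster Il1rl1-23.4kb (0.961, rank 418), Il1rl2-0.1kb (0.958, rank 467) and Il1r1+2.1kb (0.935, rank 973) came closest, and the r of Il1r1-7.2kb was −0.85. All r rest on the same 9 groups, in which the IL-4 groups hold the high values of this CRE, and are a description.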

How the data were processed

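H3K27ac ChIP-seq libraries of mouse BMDMs were grouped by the treatment labels. Reads were cut to 51 bases by the authors after adapter removal, mapped to mm10 with ShortStack (Bowtie and SAMtools are named in the submitters' processing notes), counted around ATAC-seq peaks and scaled on peaks that did not vary between libraries. The deposited values, a score here, are these scaled counts rounded to whole numbers, so they are not raw counts and no count model was used.

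Members and gene lists were chosen with earlier results of these data known. CREs with a mean of at least 10 over a comparison were tested on log2(value + 5), a scale that understates the change of low CREs, with limma 3.58.1 in R 4.3.3 (moderated variances with a mean trend, Benjamini-Hochberg adjustment over all CREs tested). CKI libraries with a title suffix b were averaged with their group. Reads per library were estimated from the spacing of the values. Named CREs were, for each gene, the one nearest to a start and the one with the largest difference from UT in either DMSO course, and named CKIs were the 5 lowest and 5 highest IL-4 responses at Il1rl2-2.2kb and the 6 JAK inhibitors. Promoter CREs named from a list were the called ones, at most the 3 largest in each direction. Other CREs and CKIs, and Il18, Il33 and Tyk2, were named after their values were seen. Scripts were tested on simulated data. Replicate numbers of the DMSO groups did not pair (correlations of deviations between −0.087 and 0.066 over 36 pairs of groups). Alternatives were other pseudocounts, no filter, quantile normalization, other thresholds, a replicate block, single times, and libraries left out, and leaving out PH797804 was chosen after seeing the data. For LPS 6 CKIs and for IL-4 5 CKIs lacked a time and gave no response.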

Additional observations from a re-analysis of the deposited data

Results flagged for a closer look

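Within the JAK, PI3K or mTOR and MAP kinase cascade families, the response of 1 CKI stood apart from the rest of its family at a named CRE in 5 of 66 groups tested by Dixon's ratio, which flags about 1 in 20 groups by chance. Talmapimod, an inhibitor of the kinase p38, had the lowest LPS response of 9 MAP kinase cascade inhibitors at Il1r2+0.1kb (−1.52, the others between −0.75 and −0.10) and at Il1rl1-11.8kb (−2.73, the others between −1.36 and −0.30). Among 7 PI3K or mTOR inhibitors, the IL-4 response was highest with Omipalisib at Il1rl1-11.8kb (1.40, the others between −0.07 and 0.55) and with PF04691502 at the Il18rap promoter (1.65, the others between −0.13 and 0.60). GDC0994, an inhibitor of the kinase ERK, had the highest IL-4 response of 9 MAP kinase cascade inhibitors at Il18r1+9.9kb (1.09, the others between 0.01 and 0.36). Each rests on 1 library per time or a few and on the UT libraries of the same CKI, and the cause was not tested.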

How the results depend on the processing

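With a pseudocount of 20, which shrinks differences of low values, calls fell from 21 to 12 for LPS in DMSO cells, from 13 to 8 for LPS across CKIs and from 15 to 9 for IL-4 across CKIs. CKI against DMSO calls fell from 654 to 79 after quantile normalization and to 45 against the mean of all compounds in the LPS course, and from 586 to 164 and 77 in the IL-4 course. The share of lower calls against the mean of all compounds was 31.1% and 39.0%. Leaving out 1 library gave 16 to 22 LPS calls, with 16 without UT replicate 1, and leaving out DMSO replicate 1 or 2 gave 467 to 482 and 468 to 477 CKI against DMSO calls. Replicate numbers did not pair the samples, and with a replicate block the LPS calls in DMSO cells were 21 in the cluster and 27063 against 27124 over all CREs. At single times, 5 of the 15 IL-4 calls across CKIs were lost at 2 h (Il1rl2+13.7kb and the Il1rl1 CREs -3.7kb, -0.1kb, +5.2kb and +8.0kb, at 0.40 to 0.49) and 4 at 4 h (Il1rl1-0.1kb 0.44, Il1rl1+5.2kb 0.30, Il18rap-13.2kb 0.24 and the Il18rap promoter 0.28). Of the 13 LPS calls, 3 were lost at 2 h (Il1r1-7.2kb 0.49, Il1rl2+13.7kb 0.49 and Il18r1+13.6kb −0.43) and 1 at 4 h (Il1r1+7.2kb 0.28). Without PH797804, 12 CREs were called after LPS across CKIs. No value of a single CRE reversed. Where 1 read was worth 10 or more units, as in some CKI libraries, low CREs such as Il1r1+7.2kb rest on a few reads.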
